A study of Mus musculus with 96 samples.

Results

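Arntl, Clock and Npas2 encode the activating arm of the circadian clock, and their RNA was followed here over the day in 4 mouse tissues after sleep deprivation and in undisturbed controls. The 3 genes were taken from the count table of the series by the Ensembl identifiers that GENCODE M21 gives for their symbols, and they are 3 of 54833 counted features, of which 49326 had a symbol. The animals were wild-type male C57BL/6 mice aged 6 to 8 weeks, kept under 12 h of light a day, moved to constant darkness and sampled from CT4 to CT24, where CT is circadian time in hours. Sleep-deprived mice (SD) had been kept walking in a slowly rotating drum for 10 h of their rest phase, and control mice (CON) had been left undisturbed. The labels give no transgene or deletion for either group. Forebrain, cerebellum, liver and kidney were taken every 4 h, with 2 libraries for each of the 48 combinations of tissue, condition and time. The study describes the replicates as biological, and the labels do not say which animals they came from. The labels give no time since the drum was stopped, and the forced walking and the loss of sleep cannot be told apart. The study sampled the circadian times that followed the drum, 4 h apart. In SD the hours since deprivation therefore run together with circadian time, and daily rhythm and recovery cannot be told apart there.

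BMAL1, the protein of Arntl, pairs with CLOCK or with its paralog NPAS2, and the pair binds E-box sequences and turns on Per, Cry, Nr1d1 and Nr1d2 and output factors such as Dbp and Tef. PER and CRY proteins then inhibit the pair. The nuclear receptors REV-ERB (from Nr1d1 and Nr1d2) repress Arntl through a short response element, at which the ROR receptors activate it. All 3 proteins share a basic helix-loop-helix domain and PAS domains. In the brain, NPAS2 is known as a forebrain protein that can stand in for CLOCK.

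Arntl (ENSMUSG00000055116) lies on chromosome 7 from 113207465 to 113314126 on the plus strand of GRCm38. Clock (ENSMUSG00000029238) lies on chromosome 5 from 76209868 to 76304792 on the minus strand. Npas2 (ENSMUSG00000026077) lies on chromosome 1 from 39193731 to 39363236 on the plus strand. Their exons cover 7523, 13727 and 4791 bases, so levels were compared between the genes only per kilobase of exon. One antisense gene, Gm45355, shares 33 exon bases with Arntl and never exceeded 4 counts in a library. The other annotated genes that lie within the 3 spans share 0 exon bases with them.

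The REV-ERB and ROR response element is shown first, because the genes that ran most nearly opposite to Arntl in these libraries include Nr1d2. The core AGGTNA directly after the bases AAAGT, where N is any base, was searched on both strands of the 32851 RefSeq windows of 300 bases around gene starts (GRCm38.p6, 250 bases before to 50 after). It occurred in 20 windows (0.0609%), and an Arntl window was the only 1 of these to hold it at 2 places. Apart from N, 1 fixed spelling was searched. The counts describe that spelling, not other forms of the element, and are no test of how particular it is to Arntl. Both matches lie in an annotated untranslated exon of Arntl, 36 and 72 bases past the GENCODE start of the gene, and are in capitals.
Arntl, plus strand, chr7:113207492-113207521: attggtcggAAAGTAGGTTAgtggtgcgac
Arntl, plus strand, chr7:113207528-113207557: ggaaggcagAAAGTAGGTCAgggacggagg
The windows of Clock and Npas2 held 0 such matches, and none of the 3 genes held the E-box CACGTG, which is present in 7.15% of windows. The shorter letters TAGGTCA, which overlap the second match, occurred in 2.61% of windows. Bases ahead of the outermost RefSeq start of each gene are given so that the 3 can be compared, with CCAAT or its reverse complement in capitals, a pentamer that 37.4% of all windows hold.
Arntl, plus strand, chr7:113207215-113207464: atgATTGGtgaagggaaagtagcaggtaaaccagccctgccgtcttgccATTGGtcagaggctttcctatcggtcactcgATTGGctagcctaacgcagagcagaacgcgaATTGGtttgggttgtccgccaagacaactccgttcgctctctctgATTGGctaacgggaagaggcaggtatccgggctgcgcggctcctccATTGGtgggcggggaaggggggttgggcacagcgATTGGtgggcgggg
Clock, minus strand, chr5:76304793-76305042: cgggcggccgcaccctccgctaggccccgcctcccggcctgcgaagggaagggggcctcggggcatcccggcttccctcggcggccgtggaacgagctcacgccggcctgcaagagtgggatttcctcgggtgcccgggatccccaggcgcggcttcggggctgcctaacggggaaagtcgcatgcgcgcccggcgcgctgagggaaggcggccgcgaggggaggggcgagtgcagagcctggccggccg
Npas2, plus strand, chr1:39194022-39194211: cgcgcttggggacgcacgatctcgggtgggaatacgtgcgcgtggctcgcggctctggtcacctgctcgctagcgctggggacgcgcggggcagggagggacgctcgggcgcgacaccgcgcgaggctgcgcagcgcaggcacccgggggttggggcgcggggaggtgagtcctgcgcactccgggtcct
The Npas2 stretch ends where a GENCODE exon begins, short of that RefSeq start, and lies inside the GENCODE span of the gene. The pentamer occurred 7 times in the 250 bases of Arntl, 0 times in the 250 of Clock and 0 times in the 190 of Npas2. These matches describe letters only, and no binding was measured.

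Levels are given as CPM, the count of a gene per 1000000 counts of its library, and library totals ran from 24.8 to 58.5 times that number. For 20 of the 24 kidney libraries the sample title and the listed characteristics gave different conditions or times. The titles were used, which the columns of the count table also carry, and the kidney results rest on that choice. In the other tissues the characteristics give the time as DD, for constant darkness, with a number 4 below the CT of the title. All times and fitted peaks here use the CT of the titles. One library stood apart, the first CON replicate of cerebellum at CT8, in which genes annotated as antisense took 3.6% of the counts against 0.831% to 0.979% in the other 23 cerebellum libraries. The tests of cerebellum level, time and rhythm that it enters are given with and without it. The tissues carried their own markers: summed hepatocyte markers stood between 70480 and 92640 CPM in liver libraries and at most 766 CPM elsewhere, kidney epithelial markers between 21860 and 28880 CPM in kidney and at most 4.77 CPM elsewhere, forebrain neuron markers between 2777 and 4528 CPM in forebrain and at most 672 CPM elsewhere, and cerebellar neuron markers between 1922 and 3155 CPM in cerebellum and at most 566 CPM elsewhere.

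In the liver and kidney, Arntl, Clock and Npas2 all rose and fell over the day, with the highest levels at CT4 or CT8 and the lowest at CT16 or CT20, and the swing was widest for Npas2 and narrowest for Clock. Control liver Arntl stood at 46.7 and 35.9 CPM at CT4, 50.4 and 43.8 at CT8, 23.3 and 13.8 at CT12, 4.65 and 5.09 at CT16, 8.49 and 7.12 at CT20 and 31.2 and 23.4 at CT24. The 4 libraries of CT4 and CT8 lay above all the others, and those of CT16 below all the others. SD liver Arntl stood at 37.99 and 42.5 CPM at CT4, 45.1 and 45.3 at CT8, 25.9 and 11.1 at CT12, 7.52 and 3.89 at CT16, 4.91 and 4.60 at CT20 and 27.5 and 19.3 at CT24. The CON and SD libraries overlapped at each time except CT20, where both SD libraries were the lower ones. In control kidney, Arntl stood at 49.2 and 49.2 CPM at CT4, 43.1 and 42.4 at CT8, 18.3 and 14.4 at CT12, 4.00 and 3.32 at CT16, 4.92 and 6.22 at CT20 and 29.4 and 27.2 at CT24, and SD kidney at 32.8 and 47.8, 40.5 and 44.7, 17.7 and 9.29, 5.64 and 4.39, 9.06 and 6.59 and 29.4 and 24.5 at the same times. At CT16 and CT20 both SD libraries of the kidney were above both CON libraries, and at CT4 both were below. Such separation of SD from CON is no test with so few libraries at a time. How many of all genes separate this way was not counted. This holds for each such statement on the genes and tissues below, where the edgeR tests of SD against CON are given later.

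**Figure D1:**
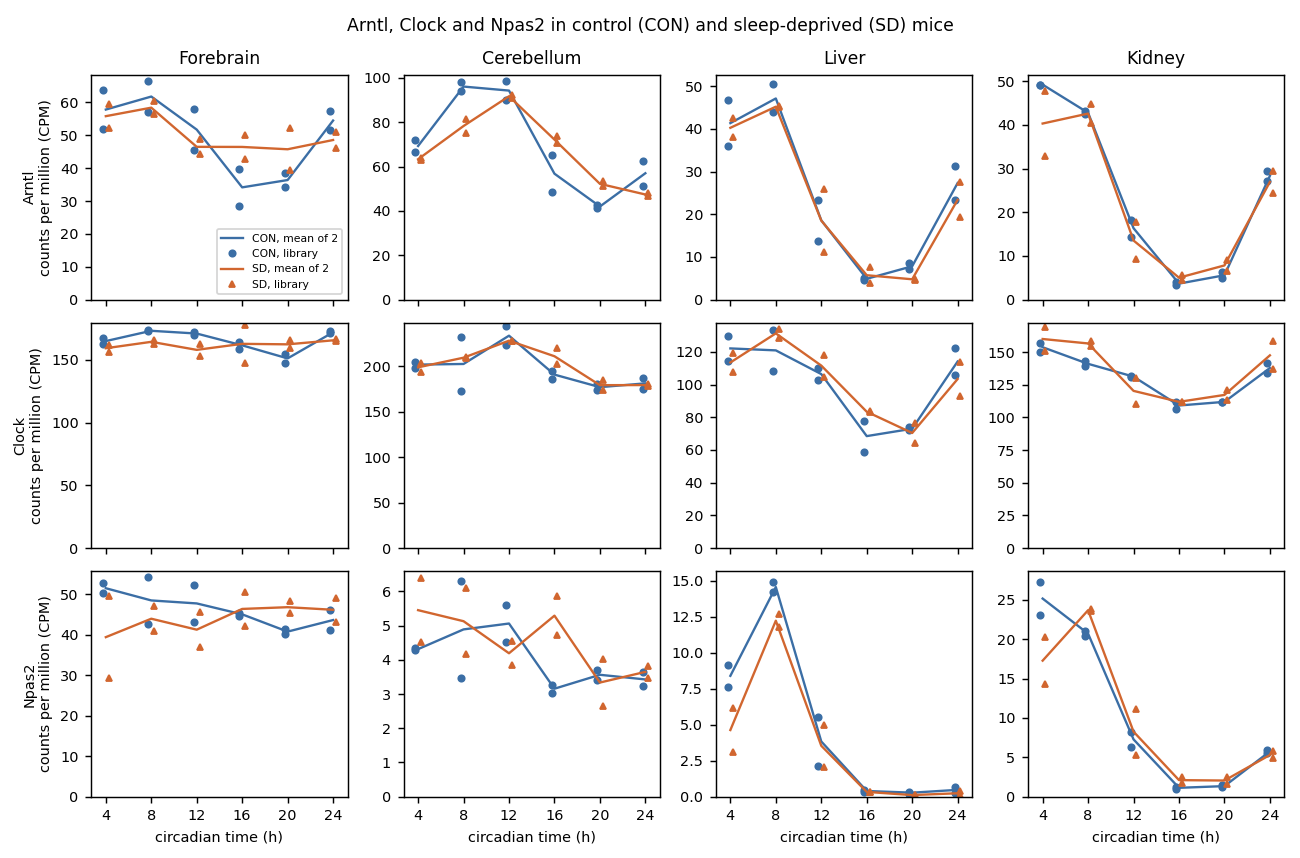
CPM (y axes, from 0) of Arntl, Clock and Npas2 against circadian time in hours (x axes) in 4 tissues, with points for single libraries and lines for the mean of 2, CON in blue circles and SD in orange triangles. Liver and kidney Arntl and Npas2 fall from CT8 to CT16 in both conditions, while forebrain Clock stays between 148 and 178 CPM.

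Npas2 had the steepest course of the 3 in these organs. Control liver Npas2 stood at 9.14 and 7.64 CPM at CT4, 14.2 and 14.9 at CT8, 5.54 and 2.11 at CT12, 0.462 and 0.309 at CT16, 0.202 and 0.336 at CT20 and 0.676 and 0.254 at CT24. Under SD it stood at 3.098 and 6.15, 12.7 and 11.8, 4.99 and 2.06, 0.312 and 0.333, 0.118 and 0.0852 and 0.354 and 0.103 CPM at those times. From CT16 to CT24 the gene was near its detection limit in liver, since a library there held as few as 7 counts in CON and 3 in SD, and folds over these times carry that counting error. Control kidney Npas2 stood at 23.0 and 27.3 CPM at CT4, 20.3 and 21.1 at CT8, 8.21 and 6.32 at CT12, 1.01 and 1.21 at CT16, 1.24 and 1.41 at CT20 and 5.51 and 5.96 at CT24. SD kidney Npas2 stood at 14.3 and 20.3, 23.6 and 23.8, 11.2 and 5.30, 2.43 and 1.75, 2.53 and 1.54 and 5.73 and 4.84 CPM. Both SD libraries were below both CON libraries at CT4 and above them at CT8, CT16 and CT20, and no kidney library of either condition fell under 38 counts.

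Clock moved in the same hours with a shallow course. Control liver Clock stood at 129.7 and 114 CPM at CT4, 133 and 109 at CT8, 110.3 and 103 at CT12, 59.03 and 77.9 at CT16, 73.8 and 72.2 at CT20 and 122 and 106 at CT24. The 4 libraries of CT16 and CT20 lay below the other 8. SD liver Clock stood at 108 and 119, 134 and 129, 118 and 105, 83.2 and 83.6, 64.2 and 76.6 and 114 and 93.2 CPM. At CT16 both SD libraries were above both CON libraries. Kidney Clock ran from 106 to 157 CPM in the 12 CON libraries (median 133) and from 110.4 to 169 CPM in the 12 SD libraries (median 134), with the lowest time mean at CT16 in both.

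The daily rhythm was tested per tissue in edgeR, with cosine and sine terms of a 24 h period for each condition, and p-values were adjusted by Benjamini-Hochberg over the whole table. In the liver all 3 genes passed at an adjusted p under 0.05 in CON, where 11.7% of all genes did, and in SD, where 13.8% did. The adjusted p-values of edgeR in liver were 2.92e-06 and 9.5e-07 for Arntl, 0.000193 and 0.000759 for Clock and 3.75e-08 and 1.26e-08 for Npas2, for CON and SD in turn. In the kidney all 3 passed as well, against a background of 4.51% of genes in CON and 4.73% in SD. There edgeR gave adjusted p-values of 8.66e-08 and 1.02e-06 for Arntl, 0.000198 and 2.95e-05 for Clock and 1e-10 and 3.45e-09 for Npas2. A rank test, JTK_CYCLE, was less sensitive in this design of 12 libraries: it passed kidney Arntl in CON (adjusted p = 0.0365, exact null), liver Npas2 in SD (0.0284) and liver Clock in SD (0.0426), and none of the other 21 combinations of gene, tissue and condition.

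The size of the rhythm was described by a cosine fitted to log2 CPM, whose amplitude is the distance from mean to peak on the log2 scale. In control liver the amplitude was 3.21 ± 0.29 for Npas2, 1.66 ± 0.16 for Arntl and 0.46 ± 0.08 for Clock (SE, n = 12). In control kidney the same order held, with 2.45 ± 0.11, 1.98 ± 0.15 and 0.24 ± 0.02. The Npas2 amplitude was thus 1.94 times that of Arntl in control liver and 1.24 times in control kidney. The fitted peak-to-trough folds in CON were 86.1 for liver Npas2 (95% interval 34.7 to 213.9) and 29.7 for kidney Npas2 (21.1 to 41.8), 9.98 for liver Arntl (6.06 to 16.4) and 15.5 for kidney Arntl (9.83 to 24.4), and 1.88 for liver Clock (1.46 to 2.41) and 1.40 for kidney Clock (1.301 to 1.51).

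The 3 genes peaked in the same part of the day, with Npas2 the latest. In control liver the fitted peak was at CT 5.36 ± 0.37 h for Arntl, 5.55 ± 0.67 h for Clock and 7.51 ± 0.34 h for Npas2 (SE, n = 12). In control kidney it was at CT 5.22 ± 0.28 h, 5.21 ± 0.38 h and 6.03 ± 0.17 h. The Npas2 peak followed that of Arntl by 2.15 h in CON and 2.28 h in SD in the liver, and by 0.815 h and 1.59 h in the kidney, as a description without a test since the genes share libraries.

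**Figure D2:**
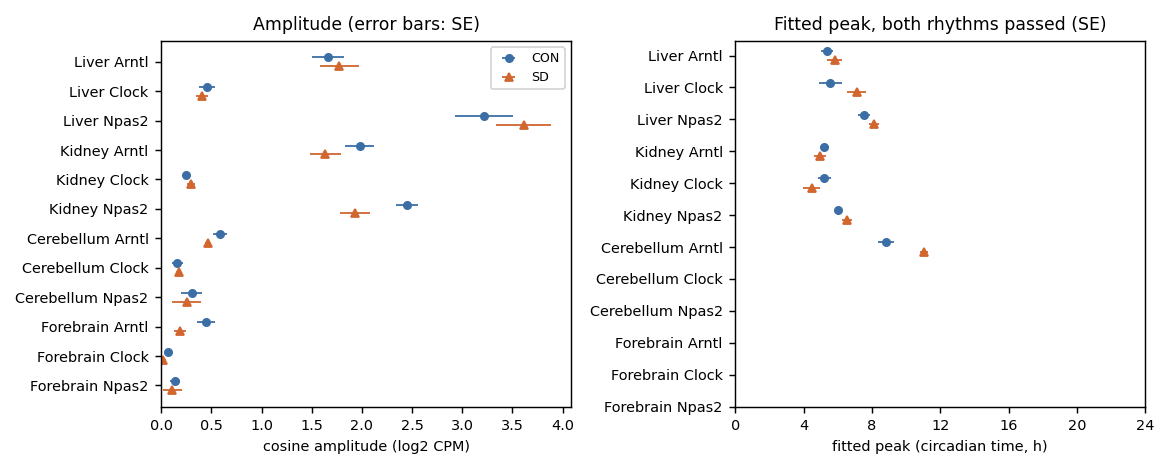
Cosine amplitude on the log2 CPM scale (left x axis) and fitted peak in circadian hours (right x axis) by tissue and gene, with CON as blue circles, SD as orange triangles and bars for 1 SE. Npas2 has the largest amplitude in liver and kidney. The CON and SD bars lie apart for the amplitudes of kidney Npas2 and of forebrain, cerebellum and kidney Arntl. For the peak they lie apart for cerebellum Arntl, liver Clock and kidney Npas2, and bars of 1 SE are no test.

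The brain tissues held a shallow rhythm of Arntl. Control cerebellum Arntl stood at 66.7 and 71.9 CPM at CT4, 98.1 and 94.2 at CT8, 98.7 and 89.9 at CT12, 48.6 and 65.04 at CT16, 42.8 and 41.3 at CT20 and 62.7 and 51.3 at CT24. Under SD it stood at 63.0 and 63.7, 75.0 and 81.6, 91.03 and 92.5, 73.8 and 70.6, 51.1 and 53.3 and 48.1 and 46.7 CPM. Both SD libraries were below both CON libraries at CT4, CT8 and CT24 and above them at CT16 and CT20. As in liver and kidney, this separation is no test, and its share among all genes was not counted. Arntl passed the rhythm test of edgeR in the cerebellum in CON (adjusted p = 3.53e-05), where 0.257% of genes did, and in SD (0.0112), where 0.018% did. Without the library that stood apart the adjusted p-values of edgeR were 5.05e-05 and 0.000888. Fitted to the 12 CON libraries alone, the CON rhythm missed the threshold (0.0623). The fitted peak was at CT 8.82 ± 0.47 h in CON, later than in liver or kidney in the fit, and the peak-to-trough fold was 2.25 (95% interval 1.79 to 2.82, n = 12).

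Cerebellum Clock followed the same shape at lower amplitude, and its call depended on the library that stood apart. Across the 12 CON libraries it ran from 173 to 244 CPM with a median of 191, and in SD from 174 to 228 CPM with a median of 203. At CT8 the CON pair stood at 173 CPM in the library that stood apart and 232 CPM in its partner. The edgeR adjusted p of the rhythm was 0.0635 in CON and 0.273 in SD, and without that library 0.00217 and 0.0333. Leaving out 4 other libraries singly, CON CT4 replicate 1 or 2, CT8 replicate 2 or CT12 replicate 2, also brought the CON value under 0.05, between 0.0441 and 0.0480. Cerebellum Npas2 was low, from 3.04 to 6.31 CPM in CON (median 3.67) and from 2.66 to 6.40 CPM in SD (median 4.34), and missed the rhythm threshold in both (adjusted p = 0.201 and 0.902 by edgeR, and 0.297 and 0.5 without the library that stood apart).

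In control forebrain, Arntl stood at 63.7 and 51.98 CPM at CT4, 56.98 and 66.6 at CT8, 57.9 and 45.5 at CT12, 28.6 and 39.7 at CT16, 38.5 and 34.3 at CT20 and 57.3 and 51.6 at CT24. The 4 libraries of CT16 and CT20 lay below the other 8. SD forebrain Arntl stood at 52.2 and 59.5, 56.3 and 60.5, 48.8 and 44.2, 50.04 and 42.9, 52.1 and 39.4 and 46.0 and 51.1 CPM, so that its lowest time mean, 45.7 CPM at CT20, was above the CON means of CT16 and CT20 (34.2 and 36.4). The rhythm passed edgeR in CON (adjusted p = 0.0205), where 1.59% of genes did, and missed it in SD (0.575), where 0.039% passed. That one condition passed and the other did not is no test of their difference, which gave an adjusted p of 0.825 in edgeR. The CON call was lost without CT8 replicate 2, CT16 replicate 1, CT20 replicate 1 or CT20 replicate 2 of CON (adjusted p from 0.0529 to 0.0793).

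The forebrain call also moved with a measure based on gene span, from gene start to gene end with introns included. In each library the mean log2 CPM of the genes with the longest spans minus that of the shortest, centred over the tissue, was 0.142 and 0.104 at CT16 and CT20 of CON and between -0.0532 and 0.0418 at its other times. With this value as a covariate, the edgeR adjusted p of the Arntl rhythm in CON was 0.598. Its part in the rhythm was not tested. Clock and Npas2 missed the rhythm threshold in forebrain in both conditions, with edgeR adjusted p-values of 0.76 and 0.955 for Clock and 0.612 and 0.799 for Npas2. Forebrain Clock ran from 148 to 174 CPM in CON and from 148 to 178 CPM in SD, and forebrain Npas2 from 40.2 to 54.4 CPM in CON and from 29.3 to 50.6 CPM in SD, where the lowest was the second library of CT4.

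Levels differed between the tissues far more for Npas2 than for Arntl or Clock. Per kilobase of exon, Npas2 averaged 9.65 ± 1.04 CPM in control forebrain, 2.13 ± 2.05 in kidney, 0.970 ± 1.17 in liver and 0.849 ± 0.211 in cerebellum (SD, n = 12, spread over times included). Arntl averaged 9.21 ± 2.85 CPM per kilobase in cerebellum, 6.56 ± 1.6 in forebrain, 3.26 ± 2.25 in liver and 3.23 ± 2.42 in kidney, and Clock 14.4 ± 1.74 in cerebellum, 12.1 ± 0.608 in forebrain, 9.53 ± 1.22 in kidney and 7.35 ± 1.78 in liver. In a bulk tissue, fewer cells that express a gene and less of its RNA per cell cannot be told apart.

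**Figure D3:**
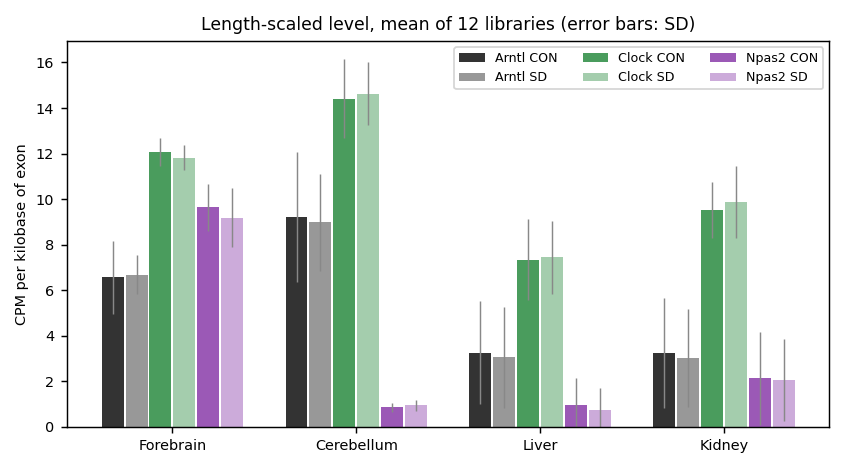
Mean CPM per kilobase of exon (y axis, from 0) of Arntl, Clock and Npas2 in the 4 tissues, with full bars for CON, pale bars for SD and whiskers for the SD over 12 libraries, cut at 0. Clock has the highest bar in each tissue, and Npas2 comes near it in the forebrain, at 9.65 against 12.1.

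The scale between tissues depends on a choice. TMM factors scale libraries by a trimmed mean of the log ratios of genes. On the log2 scale they averaged -0.45 in liver, 0.06 in kidney, 0.12 in forebrain and 0.28 in cerebellum. TMM therefore raises liver relative to the plain CPM. Scaled this way, liver held 10.1 ± 2.76 CPM per kilobase of Clock against 9.16 ± 1.2 in kidney, the reverse of their plain order (SD, n = 12). The edgeR tests below use TMM, average the log2 level over the 6 times in CON and adjust over 26536 genes.

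Npas2 differed between each pair of tissues. By edgeR it was higher in forebrain than in kidney by 2.97 ± 0.12 (log2, SE, adjusted p = 6.33e-20), than in cerebellum by 3.68 ± 0.13 (3.76e-21) and than in liver by 4.19 ± 0.14 (1.39e-22). Kidney exceeded cerebellum by 0.71 ± 0.13 (adjusted p = 7.13e-06, edgeR) and cerebellum exceeded liver by 0.51 ± 0.15 (0.00214), an order of log2 means that the arithmetic means per kilobase of liver and cerebellum do not share, and liver Npas2 was highest at CT8. The shares of all genes that passed such a level test were 84.8% for forebrain against kidney, 70.8% for forebrain against cerebellum, 85.6% for forebrain against liver, 85.9% for cerebellum against kidney, 86.4% for cerebellum against liver and 68.7% for liver against kidney, so a difference between tissues was the common outcome.

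Arntl was highest in cerebellum, above forebrain by 0.30 ± 0.08 (log2, SE; adjusted p = 0.00215 in edgeR), followed by liver, under forebrain by 0.83 ± 0.09 (3.19e-10), and kidney, under liver by 0.66 ± 0.09 (7.01e-08). With library sizes alone the liver and kidney difference of Arntl shrank to 0.15 and missed the threshold (adjusted p = 0.104, edgeR). Clock in cerebellum and forebrain differed by 0.09 ± 0.05, which did not pass in edgeR (adjusted p = 0.131, and 0.00897 without the library that stood apart, when the difference was 0.13). Liver and kidney Clock differed by 0.11 ± 0.05 with liver higher (0.0791), and with library sizes alone by 0.40 with kidney higher (5.465e-09). Forebrain Clock exceeded that of liver by 0.18 ± 0.05 (0.00261) in CON, but the same edgeR fit on the 48 SD libraries gave -0.0562 (adjusted p = 0.253).

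The rhythm itself differed between brain and peripheral tissues. The cosine and sine terms of Arntl differed from forebrain to liver (edgeR adjusted p = 1.65e-05, against 11.9% of all genes passing) and to kidney (2.16e-06, 0.554% passing), and from cerebellum to liver (3.47e-06, 5.6% passing) and to kidney (4.24e-07, 0.294% passing). Npas2 differed over the same pairs, with adjusted p-values of 1.86e-13, 1.85e-10, 6.87e-12 and 1.29e-08, and it was the only one of the 3 genes to differ between liver and kidney (0.00106, 2.83% passing) in that fit. Clock differed between forebrain and liver (0.000385) and between cerebellum and liver (0.000722). Its edgeR test missed for forebrain against kidney (adjusted p = 0.404) and cerebellum against kidney (0.287). Between forebrain and cerebellum, where 0.275% of genes passed, the adjusted p-values were 0.383 for Arntl, 0.765 for Clock and 0.861 for Npas2.

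The balance of Npas2 to Clock, which share BMAL1 as partner, therefore changed with tissue and hour at the RNA level. Per kilobase, Npas2 stood at 69.1% to 90.3% of Clock in the 12 control forebrain libraries (median 79.1%) and at 4.46% to 7.79% in the cerebellum (median 5.70%). In control liver it ran from 0.686% to 39.4% and in control kidney from 2.72% to 49.8% over the day. Under SD the ranges were 53.7% to 87.5% in forebrain, 4.13% to 9.01% in cerebellum, 0.318% to 27.1% in liver and 3.91% to 44.0% in kidney, each overlapping that of CON. The ranges pool the 6 times, so their overlap does not compare SD with CON at a given hour. The ratio of Arntl to Clock per kilobase ranged from 32.9% to 70.0% in control forebrain, 41.7% to 103% in control cerebellum, 11.9% to 73.7% in control liver and 5.40% to 59.7% in control kidney.

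**Figure D4:**
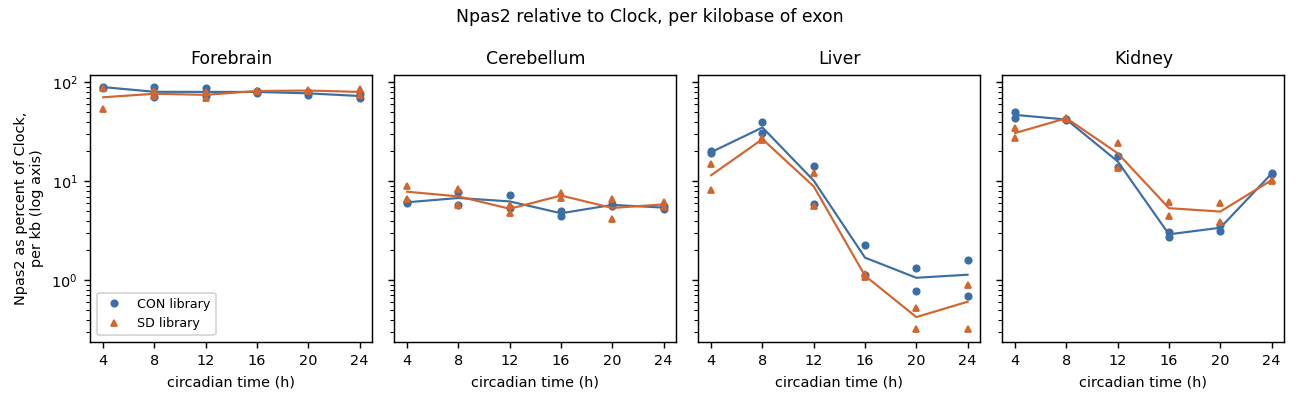
Npas2 as a percent of Clock per kilobase of exon (y axis, log scale) against circadian time in hours, with points for libraries and lines for the mean of 2, CON in blue and SD in orange. The forebrain stays between 53.7% and 90.3%, while the liver spans 0.318% to 39.4% over the day.

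Whether sleep deprivation moved the activators was asked first as a change in level averaged over the 6 times. By edgeR, 0 of the 12 combinations of gene and tissue passed, where 18.2% of all genes passed in liver, 2.3% in kidney, 0.0303% in forebrain and 0.0% in cerebellum. At an unadjusted p under 0.05 there was 1 of 12, liver Clock, and DESeq2 passed 0 with 2 unadjusted. Over all cerebellum genes, where edgeR passed 0, 757 had an unadjusted p under 0.05 and DESeq2 passed 1. Liver Clock stood higher in SD by 0.16 ± 0.06 (log2, SE, 95% interval 0.03 to 0.30, edgeR adjusted p = 0.0814, and 0.0376 without CON CT24 replicate 1). With library sizes alone, which move the median of all liver genes from 0.0053 to -0.13, that difference was 0.02805. Summed leukocyte markers ran from 207 to 466.5 CPM in CON liver and from 131 to 224 CPM in SD liver (4 of 4 markers detected), and their part in these differences was not tested. Liver Npas2 differed by -0.38 ± 0.21 (95% interval -0.82 to 0.06, edgeR adjusted p = 0.23), an interval that spans 0.566 to 1.04 times the control level. With no filter on low counts this difference passed (-0.38, adjusted p = 0.0339).

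The other level differences had intervals close around 0. For Arntl they were -0.12 to 0.22 in forebrain, -0.18 to 0.14 in cerebellum, -0.26 to 0.25 in liver and -0.23 to 0.23 in kidney (log2, 95%). For Clock they were -0.10 to 0.04 in forebrain, -0.06 to 0.09 in cerebellum and -0.05 to 0.10 in kidney. For Npas2 they were -0.25 to 0.10 in forebrain, -0.11 to 0.39 in cerebellum and -0.17 to 0.40 in kidney. In cerebellum the fitted differences were -0.0235, 0.015 and 0.14 for Arntl, Clock and Npas2, and 0.00919, 0.00239 and 0.11 without the library that stood apart, so that Arntl changed sign. Summed choroid plexus markers, of which 5 of 5 were detected, had a median of 25.9 CPM in CON cerebellum (range 8.8 to 1894) and of 722 CPM in SD cerebellum (9.55 to 3100). Their part in the cerebellum comparisons of SD with CON was not tested.

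**Figure D5:**
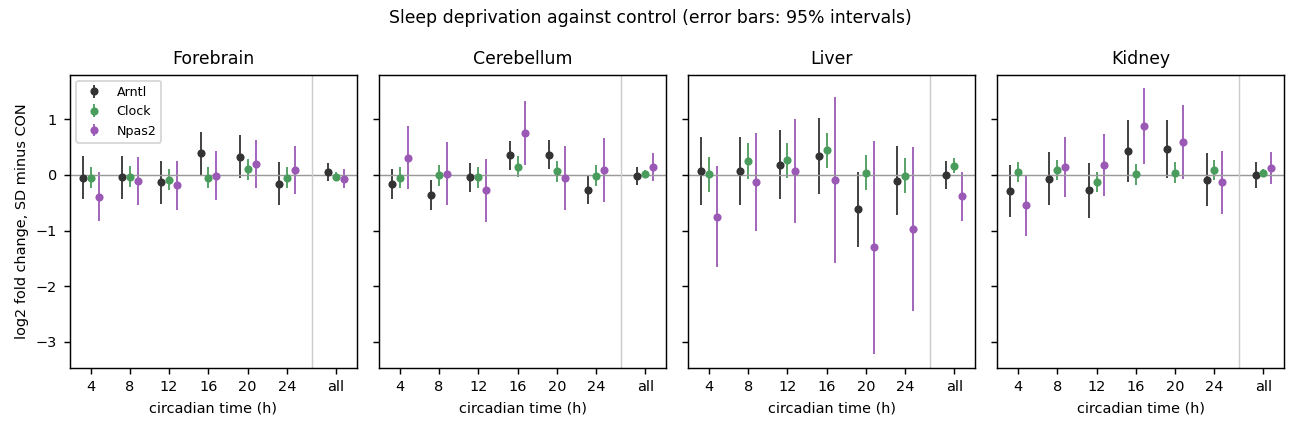
Log2 fold change of SD minus CON (y axis) at each circadian time in hours and averaged over all times, for Arntl, Clock and Npas2 in the 4 tissues, with bars for 95% intervals of the edgeR fit before adjustment over genes. The intervals of liver Npas2 are the widest, from -3.22 to 0.61 at CT20, and the averages in the last column lie within 0.4 of 0.

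Asked at any of the 6 times together, 0 of 12 combinations passed in edgeR, where 3.56% of genes passed in liver, 0.725% in kidney and 0.0% in both forebrain and cerebellum. At an unadjusted p under 0.05 there were 2, cerebellum Arntl (0.00363, edgeR adjusted p = 0.529) and kidney Npas2 (0.049, adjusted 0.469). DESeq2 passed 1, cerebellum Arntl (adjusted p = 0.0299), where edgeR gave 0.172 without the library that stood apart and 0.00523 without its partner, CON CT8 replicate 2. With no filter on low counts edgeR passed 4, Arntl in cerebellum and kidney and Npas2 in liver and kidney. In that setting 3552 of 37212 genes passed in cerebellum, 2705 of 36128 in kidney, 2873 of 32589 in liver and 729 of 39470 in forebrain. With the filter, 2743 genes in forebrain and 2036 in cerebellum had an unadjusted p under 0.05 in edgeR, and DESeq2 passed 964 and 241. At single times the smallest adjusted p of edgeR was 0.0701, for cerebellum Arntl at CT8, where SD minus CON was -0.36 ± 0.12 (log2). That time compares SD with the library that stood apart and its partner, and 10.3% of all genes passed there. Without the library that stood apart, which leaves 1 CON library assumed to vary like the other groups, Arntl differed by -0.26 ± 0.13 (edgeR adjusted p = 0.998) and 0 of 22828 genes passed, with 872 at an unadjusted p under 0.05 against 5920 with it. At CT16 and CT20, the differences of cerebellum Arntl were 0.35 ± 0.12 and 0.36 ± 0.12 (edgeR adjusted p = 1 and 0.837). Kidney Npas2 differed by -0.55 ± 0.26 at CT4 and by 0.88 ± 0.32 at CT16 (adjusted p = 0.755 and 0.676, edgeR), and liver Clock by 0.44 ± 0.15 at CT16 (0.228).

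The rhythm was then compared between conditions. The edgeR test of the cosine and sine terms passed 0 of 12 combinations and 0.0% of all genes in each tissue. At an unadjusted p under 0.05 it held 2 of the 12, cerebellum Arntl (0.00113, adjusted 0.454) and kidney Npas2 (0.00918, adjusted 0.999), as against 722 to 2248 genes per tissue over all genes. DESeq2 passed 0 of the 12, with 0 to 11 of all genes per tissue.

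The fitted differences of these 2 lay in the peak time and in the amplitude. Cerebellum Arntl peaked at CT 11.04 ± 0.22 h in SD, 2.22 h after CON (95% interval 1.13 to 3.32 h, unadjusted), and 2.22 h after it (1.07 to 3.38 h) without the library that stood apart. Without that library the adjusted p of the edgeR comparison was 0.315. Kidney Npas2 had an amplitude of 1.93 ± 0.15 in SD against 2.45 ± 0.11 in CON, a difference of -0.51 (95% interval -0.90 to -0.13). Forebrain Arntl had an amplitude of 0.18 ± 0.06 in SD against 0.44 ± 0.09 in CON, a difference of -0.26 (95% interval -0.48 to -0.0399, unadjusted), beside the edgeR comparison that did not pass. Cerebellum Clock, whose rhythm passed in neither condition, had fitted peaks at CT 10.1 ± 1.33 h in CON and 11.1 ± 0.51 h in SD. Without the library that stood apart the CON peak was at CT 9.46 ± 0.42 h, 1.64 h before SD (95% interval 0.239 to 3.04 h, unadjusted), with an adjusted p of 0.47 for the edgeR comparison. In the liver the amplitude differences, SD minus CON, were 0.11 for Arntl (95% interval -0.41 to 0.64), -0.05 for Clock (-0.26 to 0.16) and 0.40 for Npas2 (-0.44 to 1.24). The liver peaks shifted by 0.450 h for Arntl (95% interval -0.720 to 1.62 h), 1.55 h for Clock (-0.302 to 3.40 h) and 0.584 h for Npas2 (-0.364 to 1.53 h), and the kidney peaks by -0.265 h for Arntl (-1.23 to 0.696 h), -0.741 h for Clock (-2.08 to 0.597 h) and 0.508 h for Npas2 (-0.204 to 1.22 h).

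The rest of the clock pathway was counted from fixed lists of genes that act with the activators. Of the 8 repressors (Per1, Per2, Per3, Cry1, Cry2, Ciart, Nr1d1 and Nr1d2), which inhibit or silence the activators, 8 were rhythmic in control liver and 8 in control kidney, 5 in control cerebellum and 3 in control forebrain, beside 11.7%, 4.51%, 0.257% and 1.59% of all genes. Under SD the numbers were 7, 8, 2 and 1, beside 13.8%, 4.73%, 0.018% and 0.039% of all genes. The edgeR calls over all genes went from 57 in CON to 4 in SD in cerebellum and from 367 to 9 in forebrain. Without the library that stood apart, cerebellum held 38 calls in CON and 95 in SD, the other direction. The repressors were not counted without it. Nr1d1, which encodes REV-ERB alpha, ran from a mean of 3.78 CPM at CT4 to 73.4 CPM at CT16 in control liver, and Nr1d2, which encodes REV-ERB beta, from 23.6 CPM at CT8 to 276 CPM at CT16, the hours at which Arntl was high and low in turn. In cerebellum, Nr1d1 was lowest at CT8 (71.1 CPM) and highest at CT16 (128 CPM) in CON, with an edgeR adjusted p of 2.8e-05. The CT8 mean and the test include the library that stood apart. None of the 8 passed a level test between SD and CON in any tissue. The shares of all genes that passed were 18.2% in liver, 2.3% in kidney, 0.0303% in forebrain and 0.0% in cerebellum. The median log2 difference of the 8 was 0.07 in forebrain, 0.11 in cerebellum, 0.10 in liver and 0.09 in kidney, beside 0.00464, -0.00703, 0.00527 and 0.00854 over all genes.

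Of the 3 ROR genes, which activate Arntl, 2 were tested in liver and 3 in each other tissue, and 0 differed in level between SD and CON by edgeR. The level shares of all genes given for the repressors apply here too. Of the 6 output factors, 5 were tested in each tissue, and 2 were higher in SD liver, Hlf by 0.21 ± 0.06 (log2, edgeR adjusted p = 0.0111) and Tef by 0.25 ± 0.08 (0.0413), both factors of the PAR bZIP family. On the plain CPM scale the same differences were 0.0814 and 0.101. None of the output factors passed in the other 3 tissues, and rhythm calls in liver, kidney, cerebellum and forebrain numbered 4, 5, 4 and 0 in CON and 4, 5, 0 and 0 in SD, beside the same shares of all genes. The cerebellum calls include the library that stood apart.

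Of the 8 kinases and ligases that modify clock proteins, 1 was lower in SD liver, Csnk1e, the gene of casein kinase 1 epsilon, with a log2 difference of -0.22 ± 0.07 (edgeR adjusted p = 0.021, and -0.33 on the plain CPM scale). Of the 9 tested cofactors of the activators, 0 differed in level in any tissue, and 3 were rhythmic in control liver (11.7% of all genes), among them Nampt, the enzyme of the NAD salvage pathway, from 77.3 CPM at CT12 to 250 CPM at CT20. Of the bHLH-PAS relatives, which share the domains of the 3 activators, 8 to 10 of 11 were tested per tissue and 1 was higher in SD liver, Epas1, the gene of HIF-2 alpha, by 0.17 ± 0.05 (edgeR adjusted p = 0.0248, and 0.0394 on the plain CPM scale as a log2 difference). The remaining genes with the smallest rhythm p in control liver were Skp1a (edgeR adjusted p = 0.00831), a ubiquitin ligase subunit, Prkaa2 (0.0541), a subunit of the kinase AMPK, Kat2b (0.0342), a histone acetyltransferase, and the relatives Npas1 (0.044) and Npas3 (0.0858). None of these lists held a gene whose rhythm differed between SD and CON in the edgeR test. These shares per list, 0 to 2 genes of a list in liver, stand beside the 18.2% of all liver genes that passed. In the other tissues 2.3% of all genes passed in kidney, 0.0303% in forebrain and 0.0% in cerebellum.

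Likeness to each activator was taken as Pearson's r of log2(CPM + 0.5), centred on the tissue mean, over the 96 libraries, as a description without p because libraries share tissue, hour and depth. Arntl was most like Leo1 (r = 0.889), a subunit of the PAF1 elongation complex, then Clock (0.867), the bZIP repressor gene Nfil3 (0.853), Gm20428 (0.830) and Chic1 (0.830). It ran most nearly opposite to Nr1d2 (-0.893), Ciart (-0.892), which encodes a repressor of the BMAL1 pair, and Tef (-0.808). Among the genes most like Clock were Arntl (0.867), Leo1 (0.825), Clpx (0.797) and Trim2 (0.792), and it ran most nearly opposite to Ciart (-0.834), Gm17597 (-0.801) and Nr1d2 (-0.787).

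Npas2 was most like Gm20428 (r = 0.910), Dtx4 (0.857), Clpx (0.843), the gene of a mitochondrial chaperone, Arntl (0.829) and Ppard (0.799), a nuclear receptor gene, and most opposite to Tef (-0.864), Per3 (-0.862) and Ciart (-0.839). Gm20428 is a processed pseudogene of 283 bases on chromosome 1 from 39276283 to 39276565, inside the span of Npas2 on the other strand, with a median of 34.5 counts a library. Gm17597 is an antisense gene on chromosome 15 from 81800791 to 81802613 whose span overlaps the start of Tef on the other strand. The counting used strand, but a shared locus cannot be told apart from a shared course here. Between Npas2 and Clock themselves r was 0.758.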

How the data were processed

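Total RNA, depleted of ribosomal RNA, was sequenced from 96 tissue samples with a stranded kit as paired reads of 150 bases. Per the labels and the study's methods, the authors trimmed reads with Trim Galore 0.6.4, aligned them to GRCm38 with HISAT2 2.1.0, kept alignments with a mapping quality of 60 using Samtools 1.9, and counted genes with featureCounts 1.6.4 at strand setting 2. The deposited values used here are these raw counts, without normalisation. TPM values of the study were not used here. Each library's own file equalled its column in the count table in 96 of 96 cases, and 0 pairs of libraries were identical.

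The 3 genes, the gene lists and the tests were chosen with earlier results of these data known. Each tissue was fitted separately in edgeR 4.0.16 (R 4.3.3) by the quasi-likelihood F-test with TMM factors and the default filter on low counts, and tissues were compared in a fit on the 48 CON libraries. An adjusted p under 0.05 was called. Intervals for fold changes use the degrees of freedom implied by each F and p. Cosine fits to log2 CPM give amplitude and peak, with intervals from their standard errors. Named besides the 3 genes are, from each list, genes past the threshold for level or rhythm difference and the 2 with the smallest p for rhythm in CON liver, and, for likeness over 16981 genes tested in all tissues, the 5 highest and 3 lowest r. Some items that this rule names are not reported here. Alternatives were DESeq2 1.42.0, its size factors, library sizes alone, no filter, JTK_CYCLE on CPM, time as a factor, a replicate block, a covariate for long against short genes, and leaving out each library. In the fits over tissues, those without 1 library reused the trended dispersion of the complete fit. Scripts were tested on simulated counts.

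Of the lists of other cell types, choroid plexus and liver leukocyte markers are given beside the results they move with. Summed erythroid markers ran from 131 to 303 CPM in CON liver, glial markers from 789 to 2178 CPM in CON cerebellum, and endothelial markers from 212 to 267.5 CPM in CON liver and 175 to 229 CPM in SD liver. Leukocyte markers ran from 71.7 to 138 CPM in CON kidney and from 44.8 to 76.7 CPM in SD kidney.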

Additional observations from a re-analysis of the deposited data

Results flagged for a closer look

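The daily course differed between tissues in CON for 11 of the 18 combinations of gene and tissue pair, by the edgeR test of the difference in cosine and sine terms. Of all genes, 11.9% passed for forebrain against liver, 0.554% for forebrain against kidney and 5.6% for cerebellum against liver. For cerebellum against kidney 0.294% passed, for liver against kidney 2.83% and for forebrain against cerebellum 0.275%. Clock missed in forebrain, cerebellum and liver against kidney (edgeR adjusted p = 0.404, 0.287 and 0.163). Arntl missed in liver against kidney (0.784), and all 3 genes missed in forebrain against cerebellum. For Arntl the adjusted p-values were 1.65e-05 for forebrain against liver, 2.16e-06 for forebrain against kidney, 3.47e-06 for cerebellum against liver and 4.24e-07 for cerebellum against kidney. For Clock they were 0.000385 for forebrain against liver and 0.000722 for cerebellum against liver. For Npas2 they were 1.86e-13 for forebrain against liver, 1.85e-10 for forebrain against kidney, 6.87e-12 for cerebellum against liver, 1.29e-08 for cerebellum against kidney and 0.00106 for liver against kidney.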

How the results depend on the processing

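The replicate numbers were not used to pair the samples in the main fits. Deviations of same-numbered CON and SD libraries correlated between -0.321 and 0.397 over 24 pairs, with 7 above 0.1. Between tissues 0 of 36 pairs exceeded 0.1. The labels do not say whether same-numbered libraries share an animal or a batch, and these correlations cannot exclude it. The main tests treat the libraries as independent. With a replicate block 0 of 12 level tests passed, as without it. Between tissues the block assumes 1 time course for all tissues, and gave -0.33 for Arntl in forebrain against cerebellum, 0.17 for Clock in forebrain against liver, and -0.0703 (reversed), -0.86 and -0.79 for Npas2 in cerebellum against liver, cerebellum against kidney and liver against kidney, all past the threshold only without it.

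JTK_CYCLE lost the rhythm of Arntl in CON forebrain (adjusted p = 0.627), CON and SD cerebellum (0.397 and 0.427), CON and SD liver (0.105 and 0.11) and SD kidney (0.127), of Clock in CON liver (0.246) and CON and SD kidney (0.126 and 0.275), and of Npas2 in CON liver (0.0762) and CON and SD kidney (0.235 and 0.175). Fits of 12 libraries alone gave 0.0992 for Arntl in CON forebrain and 0.0623 in CON cerebellum, and time as a factor 0.0728 for the former. Cerebellum Clock passed in CON with time as a factor (0.0252), no filter (0.0474), DESeq2 (0.00373) and, chosen after seeing the data, the long and short gene covariate (0.00556), and in SD with DESeq2 (0.0467) and that covariate (0.0451). The same covariate gave 0.598 for Arntl in CON forebrain.

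Level differences of Arntl, SD minus CON, near 0 changed sign with that covariate in forebrain (-0.0587) and cerebellum (0.0169), and in kidney with library sizes (0.0263), DESeq2 size factors (0.00118), no filter (0.00323) and DESeq2 (0.0124). The test at any time passed cerebellum Arntl with no filter (0.00367) and DESeq2 (0.0299), and, with no filter, kidney Arntl (0.000455), kidney Npas2 (1.2e-05) and liver Npas2 (0.0425, level -0.381). Between tissues, Clock in liver against kidney was -0.403 with library sizes, 0.152 with DESeq2 or its size factors and 0.248 in SD libraries, Clock in forebrain against cerebellum -0.251 with library sizes and -0.167 in SD libraries, Clock in forebrain against liver -0.0562 in SD libraries, and Arntl in liver against kidney 0.154 with library sizes. The rhythm of Clock differed in SD libraries for forebrain against kidney (0.0442), cerebellum against kidney (0.00502) and liver against kidney (0.0288), the last also with DESeq2 (0.0313). The causes were not tested.

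Leaving out single libraries gave -0.0653 to 0.0107 for the level difference of Arntl in cerebellum, -0.0442 to 0.0626 in kidney and -0.0996 to 0.0478 in liver, -0.000675 to 0.0368 for Clock in cerebellum and 0.122 to 0.191 in liver. It gave adjusted p-values of 0.00523 to 0.988 for Arntl in cerebellum at any time, 0.013 to 0.0793 for its rhythm in CON forebrain, and 0.00217 to 0.115 and 0.0333 to 0.613 for the rhythm of Clock in CON and SD cerebellum. For Clock it gave -0.133 to -0.0414 for forebrain against cerebellum, 0.0903 to 0.155 for liver against kidney and, for the rhythm between these, 0.0494 to 0.403. Over all alternatives together, and not only single libraries, 3696 values held, while 40 grew stronger, 25 grew weaker, 35 changed direction and 5 moved otherwise. At CT8 in cerebellum, chosen after seeing the data, leaving out CON replicate 1 turned Npas2 from 0.0205 to -0.287.

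Counts over all genes moved by over 1.5 times in many tests. With DESeq2 or no filter the highest were 3552 (cerebellum), 964 (forebrain), 2705 (kidney) and 2873 (liver) at any time against 0, 0, 156 and 702. JTK_CYCLE gave 29 rhythmic genes in CON liver and 34 in CON kidney against 2307 and 971, and time as a factor 2297 in CON cerebellum against 57. Depth limited liver Npas2 most, with 3 to 498 counts a library.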
